A study of Mus musculus with 6 samples.

Results

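The neural lineage genes described here are 9 genes out of the 23951 rows of a messenger RNA table comparing Alkbh1 knockout with wild-type mouse embryonic stem (ES) cells. They were chosen by name, with earlier results of the same data known. The members are the transcription factor genes Pax6, Sox1, Sox11 and Pou3f2, and the structural and RNA-binding genes Nes, Ncam1, Map2, Msi1 and Tubb3. The wild-type (WT) group was 2 libraries of the TT2 ES cell line, and the knockout (KO) group was 4 libraries of Alkbh1 KO cells, 2 from each of 2 clones. All cells had a C57BL6 x CBA background, were at passage 5 and were grown without feeder cells. The Alkbh1 protein belongs to the AlkB dioxygenases, enzymes that take methyl groups off nucleic acids. The deleted part of Alkbh1 was not stated in the sources used here, and with 2 clones an effect of the genotype and differences between clones cannot be told apart.

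ES cells can form all tissues of the embryo, and neural genes are mostly silent or low in them until differentiation begins. Neural fate starts with transcription factors such as Sox1 and Pax6 in the neural plate, whose cells then express the filament protein nestin and the RNA-binding protein Musashi. Neurons that arise later build axons and dendrites with class III beta-tubulin and MAP2 and adhere through NCAM. Pou3f2 (also called Brn2) and Sox11 act in the step from progenitor to neuron.

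The deposited comparison held 1 value for WT and 1 for KO per gene, in FPKM (fragments per length of transcript and per mapped fragments of the library, a level per length), with the authors' log2 fold change of KO over WT and their q (a p-value adjusted over all genes tested). Single libraries were not listed, so the levels below have no SD, the spread within a group and between clones cannot be shown, and the depth is unknown. Which of the KO libraries, and whether both clones, entered the KO value was not stated in the sources used here. Genes with q under 0.05 are termed called, lower or higher in KO; 7163 of the 14095 tested genes were called (50.8%), with 28.4% of the tested genes lower and 22.4% higher. The ES cell identity of both groups was checked on Pou5f1, at 1222 (WT) and 716 FPKM (KO), Sox2 (278 and 164 FPKM) and Nanog (481 and 426 FPKM, with a failed test) per the authors' deposited table. Alkbh1 itself stood there at 33.9 (WT) and 18.1 FPKM (KO), with q = 0.0943, and was not called; its region is joined over 5 genes, whose reads may not be separable. The KO libraries came from 2 clones, but nothing in the labels says that the WT libraries, or those of the same clone, came from separate cultures. The spread behind the deposited p-values may thus be technical alone within WT and within each clone.

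Among the neural lineage genes, the 3 tested transcription factor genes fell and 3 of the 5 structural and RNA-binding genes rose. Of the 8 tested members, 3 were called lower (Pax6, Sox1 and Sox11) and 3 higher (Ncam1, Map2 and Msi1), while Nes and Tubb3 were not called and Pou3f2 was not tested. All 6 called members also differed at least 2-fold, as did 5.36% of the tested genes in the lower and 9.04% in the higher direction. These counts are of named genes chosen with earlier results of the same data known, and no test was made over the 9 as a set. In RNA from whole cultures, fewer cells of a type and less RNA per cell cannot be told apart.

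**Figure D1:**
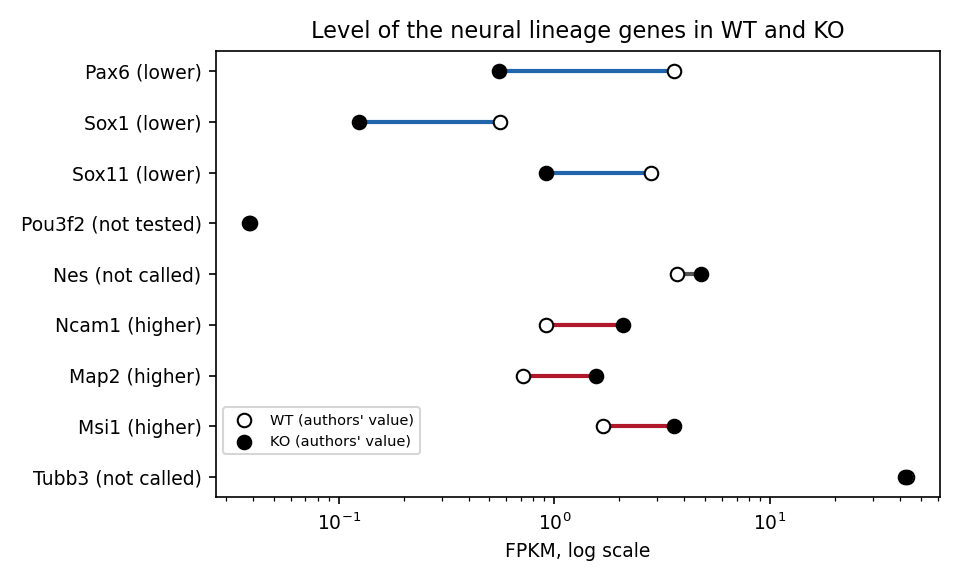
Authors' FPKM value in WT (open circles) and KO (filled circles) for each of the 9 neural lineage genes, on a log axis; blue lines join genes called lower in KO, red lines genes called higher and grey lines the others. Pax6, Sox1 and Sox11 lie to the left in KO, Ncam1, Map2 and Msi1 to the right, and the 2 values of Tubb3 and of Pou3f2 nearly coincide.

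Pax6, which encodes a paired-box and homeodomain factor of the eye and neural tube, fell most. It stood at 3.58 (WT) and 0.552 FPKM (KO) per the authors' deposited table, a 6.48-fold difference (log2 fold change -2.70, q = 0.000206). That q is the smallest in the table and is shared by every gene at the smallest deposited p-value, 5e-05, which leaves them tied. By fold change Pax6 was the 14th lowest of 14039 tested genes with a value above 0 in both groups. Its region in the table (chromosome 2, 105376237 to 105537521, mm9) is joined over 3 genes, the others being the noncoding genes Paupar, listed at 0.0236 and 0.0250 FPKM, and Pax6os1, listed at 0 in both groups per the authors' deposited table. The nearest gene outside the region, Elp4, was not called at 6.24 (WT) and 4.87 FPKM (KO), with q = 0.0730 per the authors' deposited table.

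Sox1, the earliest of the SOXB1 factors to mark committed neural plate cells, was low in both groups. It fell to 0.124 FPKM from 0.559 FPKM per the authors' deposited table, a 4.51-fold difference (log2 fold change -2.17, q = 0.00323), and was the 37th lowest by fold change. It shares its joined region (chromosome 8, 12385771 to 12436732, mm9) with the noncoding gene Gm5607, which was not tested and stood at 0.276 (WT) and 0.318 FPKM (KO) per the authors' deposited table. In WT the Sox1 value was thus the higher of the pair, and in KO the lower. The sources used here do not say whether counting used strand, so reads of such overlapping genes are uncertain.

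Sox11, a SOXC factor of newly formed neurons, has a region of its own on chromosome 12 (28019133 to 28027583, mm9). Its value fell from 2.81 to 0.910 FPKM, at log2 fold change -1.63 (q = 0.000206) per the authors' deposited table, and it ranked 104th from the lowest. Pou3f2 (chromosome 4, 22409242 to 22415513, mm9) was marked as not tested, at 0.0386 (WT) and 0.0384 FPKM (KO) per the authors' deposited table. Both values lie below the lowest mean level of any tested gene with a finite fold change, 0.244 FPKM, so no difference in Pou3f2 was detectable at these levels.

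The starts of the genes that fell are shown with that of Map2, which rose, because these are the members the result turns on. Promoters of 7 of the 9 members were matched by symbol in a RefSeq table (build GRCm38.p6, another build than that of the expression table); Msi1 and Ncam1 were not matched. Each line gives the 250 bases before a start site, 5′ to 3′ along the gene, and capitals mark the GC box GGGCGG, which Sp factors bind, and the CCAAT box CCAAT, which NF-Y binds, on either strand; no 2 of these different motifs overlapped.
Pax6 upstream start, chr2:105668646-105668895, plus strand: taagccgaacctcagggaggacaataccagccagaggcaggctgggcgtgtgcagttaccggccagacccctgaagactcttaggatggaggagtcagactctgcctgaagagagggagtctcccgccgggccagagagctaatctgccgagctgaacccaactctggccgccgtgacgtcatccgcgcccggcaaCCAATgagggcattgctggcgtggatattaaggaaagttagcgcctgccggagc
Pax6 downstream start, chr2:105682213-105682462, plus strand: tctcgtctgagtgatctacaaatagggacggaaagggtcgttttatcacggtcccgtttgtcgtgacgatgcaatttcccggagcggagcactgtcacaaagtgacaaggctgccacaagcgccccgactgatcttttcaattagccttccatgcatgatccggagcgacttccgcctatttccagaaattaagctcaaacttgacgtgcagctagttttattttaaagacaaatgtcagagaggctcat
Sox1, chr8:12395269-12395518, plus strand: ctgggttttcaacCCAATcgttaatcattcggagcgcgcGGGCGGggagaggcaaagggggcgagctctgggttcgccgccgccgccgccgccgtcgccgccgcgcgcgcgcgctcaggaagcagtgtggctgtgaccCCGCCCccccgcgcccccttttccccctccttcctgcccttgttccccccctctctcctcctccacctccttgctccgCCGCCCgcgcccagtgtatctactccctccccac
Sox11, chr12:27342719-27342968, minus strand: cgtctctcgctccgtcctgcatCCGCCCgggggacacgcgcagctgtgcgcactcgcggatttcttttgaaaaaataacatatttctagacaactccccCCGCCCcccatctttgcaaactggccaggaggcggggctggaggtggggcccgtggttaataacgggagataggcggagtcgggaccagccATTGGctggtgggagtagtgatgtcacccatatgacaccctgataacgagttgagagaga
Map2, chr1:66175079-66175328, plus strand: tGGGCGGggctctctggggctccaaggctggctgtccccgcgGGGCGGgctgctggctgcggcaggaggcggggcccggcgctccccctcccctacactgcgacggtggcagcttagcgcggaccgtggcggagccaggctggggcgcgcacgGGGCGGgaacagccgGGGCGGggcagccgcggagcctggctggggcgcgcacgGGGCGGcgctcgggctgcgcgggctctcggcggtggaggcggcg

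Map2 had 5 GC boxes in this window, Sox1 had 3, Sox11 had 2 and the 2 Pax6 starts had none. A GC box is found in 33.0% of the 32526 promoter windows of this length and a CCAAT box in 33.8%. The CCAAT box occurred once each at the upstream Pax6 start, at Sox1 and at Sox11, and at neither the downstream Pax6 start nor Map2. The windows held 15 CG dinucleotides at each Pax6 start, 29 at Sox1, 17 at Sox11 and 34 at Map2, beside a median of 6 and an upper quartile of 16 over all windows. Sox1 and Sox11, which fell, and Map2, which rose, thus all lay above that quartile, and both Pax6 starts lay between the median and it. A match to these letters is a description of the sequence and was not tied to any binding.

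Of the structural genes, the adhesion and cytoskeletal genes Ncam1 and Map2 rose to about the same extent. Ncam1, which encodes the neural cell adhesion molecule, stood at 0.915 (WT) and 2.08 FPKM (KO) per the authors' deposited table, a 2.28-fold difference (log2 fold change 1.19, q = 0.000206). Its joined region (chromosome 9, 49310251 to 49607174, mm9) also holds Gm11149, not tested and listed at 0.0227 and 0.246 FPKM per the authors' deposited table. Map2, which encodes a microtubule-associated protein of dendrites (chromosome 1, 66221903 to 66489157, mm9), rose from 0.717 to 1.55 FPKM with the same q per the authors' deposited table, a 2.17-fold difference (log2 fold change 1.12).

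Msi1, which encodes the progenitor RNA-binding protein Musashi-1 (chromosome 5, 115879694 to 115904211, mm9), rose from 1.69 to 3.58 FPKM per the authors' deposited table, a 2.12-fold difference (log2 fold change 1.08, q = 0.000206). Nes, the gene of the progenitor filament protein nestin (chromosome 3, 87775015 to 87784373, mm9), was at 3.70 (WT) and 4.79 FPKM (KO) per the authors' deposited table (log2 fold change 0.37, q = 0.0592). Nes was not called; at q under 0.1 it would be the fourth higher member, where 25.4% of the tested genes are higher and 31.8% lower. At q under 0.01 the 6 calls all stand, beside 22.6% of the tested genes lower and 17.2% higher.

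Tubb3, the gene of class III beta-tubulin (chromosome 8, 125935464 to 125945910, mm9), was the most abundant member. It stood at 43.1 (WT) and 42.4 FPKM (KO) per the authors' deposited table (log2 fold change -0.02, q = 0.916). It was also the single member above the median level of the tested genes, 7.54 FPKM. In order of their WT level per length the members ran from Tubb3 through Nes, Pax6, Sox11, Msi1, Ncam1, Map2 and Sox1 to Pou3f2. In KO the order was Tubb3, Nes, Msi1, Ncam1, Map2, Sox11, Pax6, Sox1 and Pou3f2, so that the 3 structural genes that rose stood above Pax6 and Sox11. With no spread between libraries, neighbours in these orders cannot be said to differ.

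The fold change in this table runs with the level of a gene, which sets what each member should be read against. With the tested genes split into 10 equal classes by mean level, from low (class 1) to high (class 10), the median log2 fold change ran from 0.69 in class 1 to -0.72 in class 10. Pax6 and Sox11 lie in class 3, with a median of 0.36, in which 39.6% of the genes were called higher and 8.69% lower. In that class 0.0712% of the genes lay below Pax6 and 0.997% below Sox11. Sox1 lies in class 1, where 5.48% of the genes were called lower and 0.855% lay below it. The falls of these 3 genes ran against the median of their level.

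The rises were less far from genes of the same level. Ncam1 and Msi1 lie in class 3 as well, where 88.8% and 86.3% of the genes lay below them. Map2 lies in class 2, with a median of 0.46 and 40.2% of genes called higher, and 79.7% lay below it. Less the median of their level, the log2 differences of Ncam1, Msi1 and Map2 were 0.83, 0.73 and 0.65. Nes, which was not called, lies in class 4, where 59.8% of the genes lay below it, and less the median of its level its log2 difference was 0.14. Tubb3 lies in class 9, where 59.8% of the genes were called lower and the median was -0.51, and 84.6% of those genes lay below it.

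**Figure D2:**
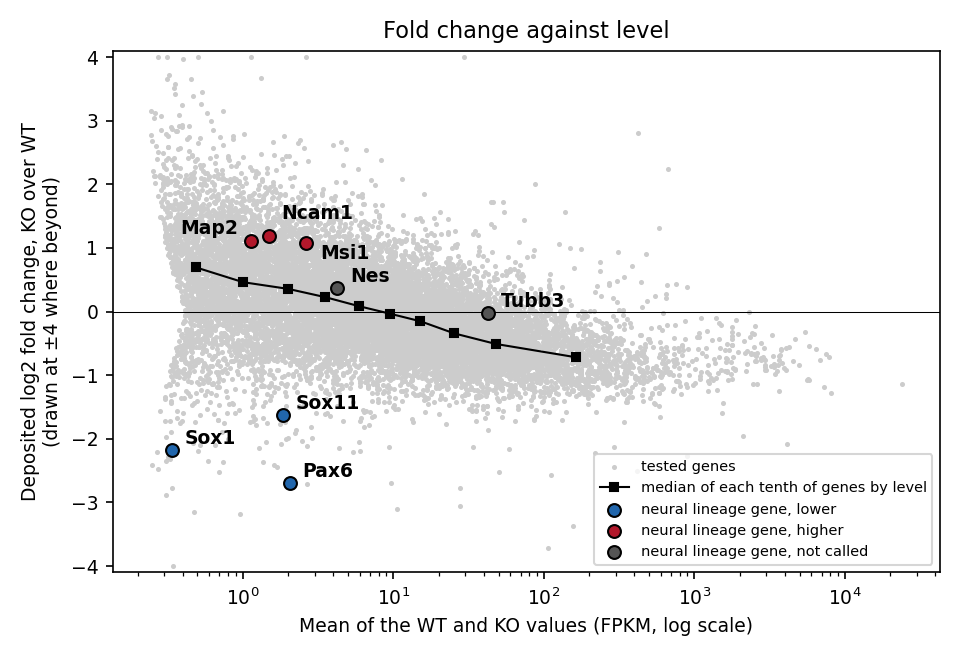
Deposited log2 fold change of KO over WT against the mean of the 2 FPKM values (log axis) for the tested genes (grey), with the median of each of 10 level classes (black squares) and the 8 tested neural lineage genes. Pax6 at -2.70, Sox1 at -2.17 and Sox11 at -1.63 lie far below the medians of 0.36 and 0.69 of their levels, while Ncam1, Map2 and Msi1 lie between 1.08 and 1.19.

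Scaling moved the values of the 6 called members but not their directions. The FPKM of tested genes summed to less in KO; with equal totals every log2 value would be 0.65 higher, and with the median of genes at or above the median level set to 0 it would be 0.37 higher. Both shifts are upward, so among the called members they could have reversed only those that fell. Pax6, Sox1 and Sox11 would stand at -2.04, -1.52 and -0.97 with equal totals, and Ncam1, Map2 and Msi1 at 1.84, 1.77 and 1.74. Only Tubb3 among the tested members changed sign, from -0.02 to 0.63, 0.34 with the recentring and 0.48 against genes of its level. A pseudocount of 1 FPKM shrank all 6, since their values are low: Pax6 to -1.56, Sox1 to -0.47, Sox11 to -0.997, Ncam1 to 0.69, Map2 to 0.57 and Msi1 to 0.77.

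**Figure D3:**
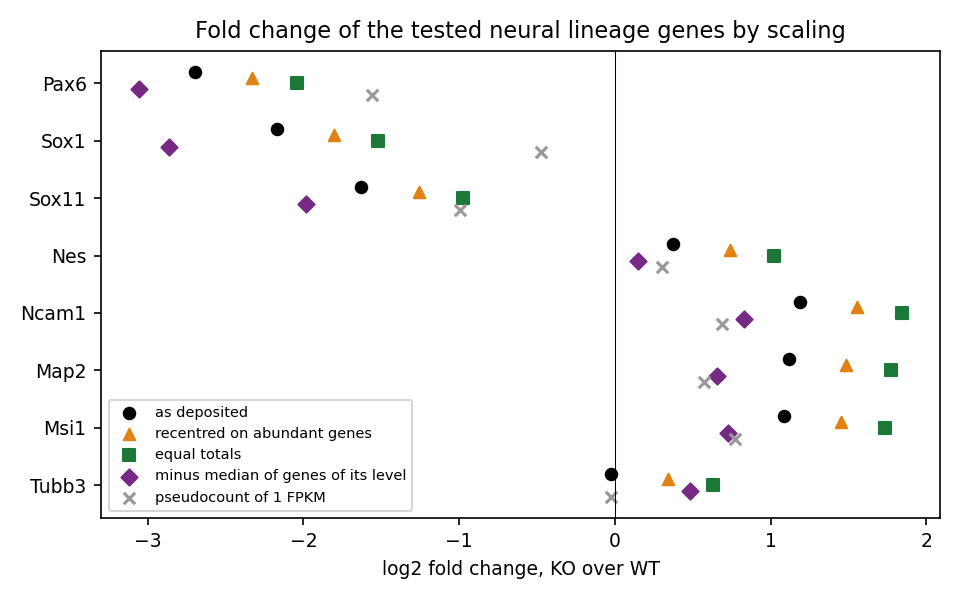
log2 fold change of the 8 tested neural lineage genes as deposited (black circles), recentred on abundant genes (orange triangles), with equal totals (green squares), less the median of genes of the same level (purple diamonds) and with a pseudocount of 1 FPKM (grey crosses). Pax6, Sox1 and Sox11 stay below 0 and Nes, Ncam1, Map2 and Msi1 above 0 under each, and Tubb3 moves from -0.02 to as much as 0.63. The pseudocount cannot change a sign.

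Transcript structure differed among the members and also runs with fold change over all genes. By the longest GENCODE transcript of each symbol, the median log2 fold change of tested genes was -0.49 in the shortest of 10 length classes and 0.44 in the longest. Sox1, Sox11 and Pou3f2 have a single exon, and Pax6 has 8. Single-exon genes had a median log2 fold change of -0.38 (545 tested, 21.5% lower and 7.52% higher), beside -0.05 for the 13386 others (28.9% lower and 23.2% higher). Ncam1, Map2 and Msi1 have 18, 15 and 15 exons, and the gene spans of the first 2 reach 296790 and 267311 bases. Of the genes that fell, Sox11 has the longest transcript at 8311 bases, in a length class whose median was 0.44. Pax6 and Sox1 have 4427 and 4832 bases (class median 0.08). Of those that rose, Ncam1 and Map2 have 6050 and 6258 bases (class median 0.24), and Msi1 has 3133 (-0.07). The part of length and exon number in the result was not tested.

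The members were next set beside their relatives by family. Of the 6 SOXB1 and SOXC genes, Sox2, a core pluripotency gene, fell with Sox1 and Sox11 (278 to 164 FPKM, log2 fold change -0.76, q = 0.000206), while Sox4 (-0.44, q = 0.0622) and Sox12 (-0.11, q = 0.606) were not called and Sox3 was not tested per the authors' deposited table. Sox2 kept its sign with equal totals, at -0.11, but lay only 0.04 below the median of genes of its level. Of the POU3 genes, Pou3f1 (Oct6), expressed in the epiblast, was the one tested, and it fell from 2.08 to 1.05 FPKM (log2 fold change -0.99, q = 0.00056) per the authors' deposited table. Among the 9 PAX genes, Pax8 was tested beside Pax6 and fell from 0.507 to 0.249 FPKM (q = 0.0122) per the authors' deposited table. The other 7 PAX genes were not tested, none of them above 0.261 FPKM.

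Msi2, the broadly expressed partner of Msi1, was not called at 15.3 (WT) and 13.5 FPKM (KO), with log2 fold change -0.17 and q = 0.369 per the authors' deposited table. The Musashi pair thus differed by call, a difference that was not itself tested. Map4, the ubiquitous relative of Map2, rose from 31.5 to 43.5 FPKM (log2 fold change 0.46, q = 0.00605) per the authors' deposited table, and the tau gene Mapt was not called (10.3 and 10.9 FPKM, q = 0.664). Ncam2 was not tested, at 0.00723 FPKM in WT and 0.0138 in KO.

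With Tubb3, 7 of the 8 beta-tubulin genes were tested. The abundant Tubb5 (838 to 628 FPKM, log2 fold change -0.41, q = 0.0259) and Tubb4b (553 to 387 FPKM, -0.52, q = 0.00218) fell as measured per the authors' deposited table, but both turned positive with equal totals, at 0.24 and 0.14, and against genes of their level, at 0.30 and 0.20. Tubb4a, a tubulin of mature neurons and glia, rose from 1.24 to 1.94 FPKM (0.64, q = 0.0139) per the authors' deposited table. Tubb2a (-0.06, q = 0.816), Tubb2b (-0.29, q = 0.0972) and Tubb6 (0.02, q = 0.924) were not called there. Coding sequences of beta-tubulins are much alike, so reads may be split among them and their values are uncertain.

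Wider lists of neural genes were counted in the same way. These lists were drawn up from general knowledge with earlier results of these data known, and the counts describe them. Outside the members, 20 of 55 listed neural transcription factor genes were tested, and 9 were called lower, 2 higher and 9 not called, with a median log2 fold change of -0.40 beside -0.06 for all tested genes. With equal totals, which adds the same 0.65 to every gene, all called genes would split into 2375 below and 4788 above 0, in place of 4000 and 3163, and the median of all tested genes would be 0.59. On that scale the 11 calls of the transcription factor list would split into 8 below and 3 above 0, and its median of 0.25 would still lie below that of all genes. Of the 61 listed structural, RNA-binding, adhesion and synapse genes outside the members, 45 were tested, with 16 lower, 9 higher and a median of -0.06, which is that of all tested genes. With equal totals its calls would split into 12 below and 13 above 0 and its median would be 0.60, again near that of all genes.

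Neural plate factors were led by Pax6 and Sox1. Of 29 listed, 11 were tested, 5 were lower and 1 was higher, and these directions held with equal totals. Beside them, 28.4% of all tested genes were lower and 22.4% higher. Gbx2, a hindbrain boundary gene that is also active in naive ES cells, fell from 7.13 to 1.62 FPKM (log2 fold change -2.14, q = 0.000206) per the authors' deposited table, and no gene of its level class lay below it. Zic2 (-1.06), a zinc finger gene of the neural plate and epiblast, fell as well, and Meis1 rose (0.260 to 0.699 FPKM, 1.43), both with q = 0.000206 per the authors' deposited table. These 2 are named because of the small count, after their values were seen. The other 18 genes of the list were not tested.

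Factors of neurogenesis included 7 genes that fell. Of 30 listed, 12 were tested, with 7 lower, 1 higher (Ebf1, 0.272 to 0.524 FPKM, log2 fold change 0.95, q = 0.00323) and a median of -0.79 per the authors' deposited table. All tested genes had 28.4% lower, 22.4% higher and a median of -0.06. With equal totals Neurod1 would move from -0.59 to 0.06, leaving 6 below and 2 above 0. The proneural gene Neurog3, also a factor of the endocrine pancreas, fell from 2.89 to 0.685 FPKM (-2.08, q = 0.000206) per the authors' deposited table. The proneural gene Neurog2 was not tested and stood at 0.0121 FPKM in WT.

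The cytoskeletal genes of neurons held calls in both directions at shares near those of all tested genes (28.4% lower and 22.4% higher). Of 24 tested, 8 were lower and 4 higher, which with equal totals would be 6 and 6. The growth cone gene Gap43 fell from 15.1 to 3.46 FPKM (-2.13 as log2 fold change) and the microtubule regulator gene Stmn2 from 269 to 139 FPKM (-0.95), both with q = 0.000206 per the authors' deposited table. In the other direction, the axonal motor gene Kif1a rose from 0.448 to 1.95 FPKM (2.12) and Dpysl5 from 1.94 to 4.76 FPKM (1.30), with the same q per the authors' deposited table. Dcx, a defining gene of migrating neurons, was not tested, at 0.0262 (WT) and 0.0272 FPKM (KO).

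Adhesion and synapse genes were counted beside Ncam1. Of 11 tested, 5 were higher (L1cam, Cntn2, Nfasc, Ncam1 and Nlgn2) and 1 lower, and the split was the same with equal totals. These 5 genes lie in level classes 1 to 4, in which 33.3% to 41.2% of all tested genes were called higher, so the count is not far from that share. L1cam, of the same immunoglobulin superfamily as Ncam1, rose from 0.562 to 1.67 FPKM (log2 fold change 1.57) and Nfasc, the neurofascin gene, from 0.691 to 1.75 FPKM (1.34), both with q = 0.000206 per the authors' deposited table. The vesicle gene Syt11 fell from 5.14 to 2.65 FPKM (-0.96, q = 0.000206) per the authors' deposited table. The tested genes of this list had a median transcript length of 5020 bases, beside 2919 for all tested genes and 3474.5 for the neurogenesis factors. Their median log2 fold changes were 0.26, -0.06 and -0.79, so the order by length was not the order by fold change. The part of length was not tested.

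In the list of progenitor and RNA-binding genes, 7 of 15 tested were lower and 3 higher, which with equal totals would be 5 and 5. The shares over all tested genes were 28.4% lower and 22.4% higher as deposited. The intermediate filament gene Vim, a partner of nestin in progenitors, fell from 61.4 to 22.0 FPKM (-1.48 as log2 fold change) and Lin28a, an RNA-binding gene that is also a marker of pluripotent cells, from 152 to 63.3 FPKM (-1.26), both with q = 0.000206 per the authors' deposited table. Elavl3, a neuronal RNA-binding gene, rose with Msi1, from 1.67 to 3.22 FPKM (0.95, q = 0.000206) per the authors' deposited table. Of the filament genes related to Nes, Nefh fell (32.5 to 17.7 FPKM, q = 0.00323, in a region joined with Ap1b1) and Synm rose from 0.655 to 1.84 FPKM (q = 0.000206) per the authors' deposited table.

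**Figure D4:**
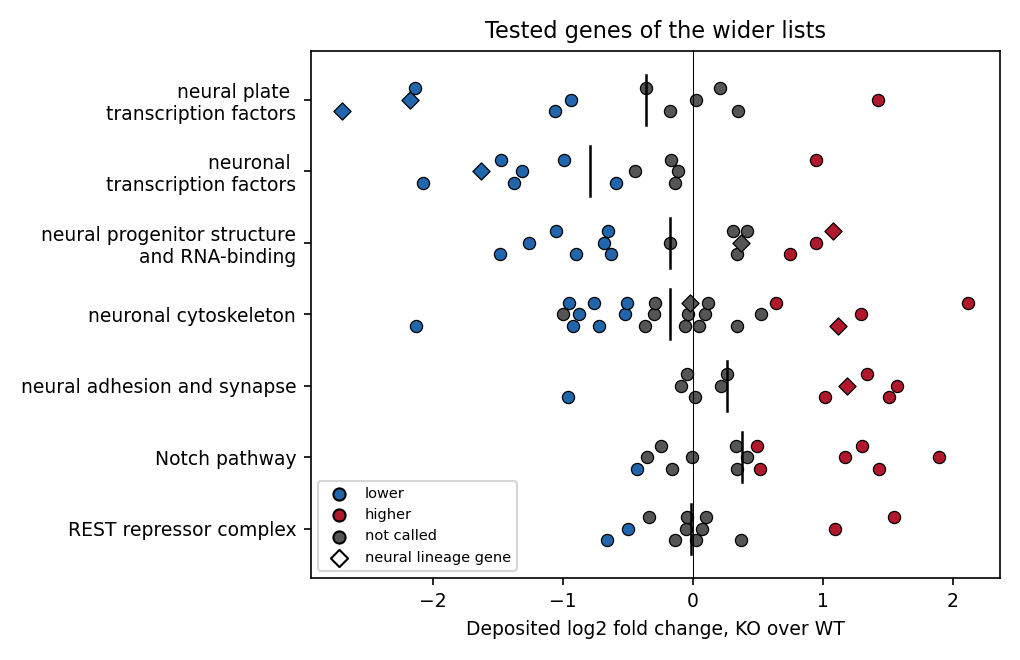
Deposited log2 fold change of the tested genes in 7 lists around the neural lineage genes, with blue for genes called lower in KO, red for higher and grey for not called; diamonds are neural lineage genes and vertical bars the list medians. The transcription factor lists have medians of -0.36 and -0.79, the adhesion and Notch lists of 0.26 and 0.38.

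The genes of the REST complex were counted as a list of repressors. REST is a repressor that holds neuronal genes silent in non-neuronal cells together with its corepressor CoREST. Rest rose from 12.3 to 26.3 FPKM (log2 fold change 1.10) and Rcor1, which encodes CoREST, from 3.12 to 9.10 FPKM (1.55), both with q = 0.000206 per the authors' deposited table, and 98.6% and 98.9% of the genes of their levels lay below them. Of the 12 genes of this list, Hdac2 (-0.66, q = 0.000206) and Ctdsp1 (-0.50, q = 0.00846) fell per the authors' deposited table; with equal totals Ctdsp1 would turn to 0.16 and Hdac2 stand at -0.0035, and against genes of its level Hdac2 would turn to 0.06. The other 8 genes were not called, among them Rcor2, Hdac1 and Kdm1a. Rcor2 stood at 85.9 (WT) and 78.1 FPKM (KO), with q = 0.468 per the authors' deposited table. The list's 2 lower and 2 higher genes of 12 stand beside 28.4% lower and 22.4% higher over all tested genes. Whether the REST genes and the neural lineage genes are linked was not tested.

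The Notch pathway keeps neural progenitors from differentiating. Of 14 tested genes, 6 were higher, among them the receptor genes Notch3 (1.19 to 4.43 FPKM, log2 fold change 1.89) and Notch1 (1.12 to 3.005 FPKM, 1.43), both with q = 0.000206 per the authors' deposited table. Over all tested genes 22.4% were higher, and 39.6% and 33.3% were in level classes 3 and 4, which hold 5 of these 6 genes. The list's median of 0.38 became 0.13 once the median of each gene's level was subtracted. The target gene Hes1 was the 1 called lower (-0.43, q = 0.0422 per the authors' deposited table), and it would turn to 0.23 with equal totals. The target Hes5, active in neural progenitors, was not tested, at 0.0476 (WT) and 0.107 FPKM (KO).

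Markers of other cells that a culture might hold were low beside those of ES cells. The summed level of the 15 ES markers was 7875 (WT) and 4893 FPKM (KO), and 9 of the 14 tested were lower and 1 higher, or 6 below and 4 above 0 with equal totals. Of all tested genes 28.4% were lower and 22.4% higher. All tested ES markers but Tfcp2l1 lie in level classes 9 and 10, where 59.8% and 77.2% of the genes were called lower. Their list's median log2 fold change of -0.54 became 0.18 once the median of each gene's level was subtracted. The sums were 11.7 and 13.6 FPKM for 12 fibroblast genes (1 lower and 4 higher of 6 tested), 9.21 and 11.6 FPKM for 11 endoderm genes (2 and 3 of 6), and 4.18 and 6.90 FPKM for 11 mesoderm genes (none lower and 3 higher of 4). They were higher for 12 astrocyte and oligodendrocyte genes, at 24.2 and 29.8 FPKM (1 lower and 2 higher of 7). For 10 neural crest genes they were 14.1 and 20.9 FPKM (2 lower and 3 higher of 8). Among the fibroblast genes, Col3a1, Postn and Lum were not tested, listed at 0 in WT and at 0.0131, 0.0162 and 0.0044 FPKM in KO per the authors' deposited table. Pdgfrb (0.318 to 0.895 FPKM), Fbn1 (0.206 to 0.503) and Col1a1 (0.322 to 0.664) were called higher there, as was Thy1. Acta2 was called lower, from 0.544 to 0.110 FPKM. Thy1 made up most of the fibroblast sums, at 6.43 (WT) and 9.39 FPKM (KO) per the authors' deposited table. The part of such other cells in the values of the neural lineage genes was not tested.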

How the data were processed

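Messenger RNA libraries were made by a strand-specific protocol from column-purified total RNA, per the labels' protocols, in 6 ES cell libraries (2 WT and 4 KO). Reads were aligned with TopHat2 to mm9, per the submitters' processing notes; the sources used here give no versions, annotation or scaling between libraries. The FPKM values, 1 per condition, the log2 fold change, the score of the test, its p-value and q-value were computed by the authors and deposited in a table with the column layout of Cuffdiff, per the file headers. Recomputing q from the deposited p-value by Benjamini-Hochberg over 14095 genes gave differences of at most 5.18e-07. Region starts were raised by 1, since region lengths showed them to count from 0.

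No test was run anew: calls are the deposited q-value under 0.05, split by the sign of the deposited log2 fold change. Splits with equal totals keep these calls and read the sign of the scaled value. Levels were grouped into 10 classes by mean FPKM over 14039 tested genes with finite fold changes. Transcript length and exon number came from GENCODE M21 (13931 genes, 99.2%), without coordinates. The steps were tested on simulated data. Named genes are the 9 members, their tested relatives, Rest, and for each list up to 2 called genes per direction with the largest fold change at a mean of at least 1 FPKM; others were chosen after their values were seen. The members and the 22 lists were chosen with earlier results of these data known. Some genes of the lists are counted but not reported by name here. Alternatives are given in the closing section. Python 3.11.15, NumPy 2.4.6, pandas 2.3.3 and matplotlib 3.10.9 were used.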

Additional observations from a re-analysis of the deposited data

How the results depend on the processing

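The counts of 3 members lower and 3 higher stayed within 1.5 times under each of these changes (q under 0.01 or 0.1, a 2-fold threshold, the 3 scalings, a minimum mean of 1 FPKM with q recomputed, and rows naming 1 gene), although the minimum leaves Sox1 out, giving 2 lower, and q under 0.1 adds Nes, giving 4 higher. With regions of 1 gene only, chosen after the data were seen, 1 member was lower (Sox11) and 2 were higher, since Pax6, Sox1 and Ncam1 lie in joined regions. The 3 scalings kept the deposited q, and only the sign of the shifted log2 value was read again. Under them a call could be lost only by a change of sign, and whether calls would stand with q recomputed was not tested. No called member changed sign under any scaling or with a pseudocount. A pseudocount cannot change a sign, and equal totals and recentring raise every value, so these could have reversed only the members that fell. Tubb3 turned to 0.63 with equal totals, 0.34 when recentred and 0.48 against its level, and the untested Pou3f2 to 0.64 and 0.36. In the lists, q under 0.01 left 0 Notch genes lower (Hes1 lost), 1 PAX gene lower, and 1 beta-tubulin lower and 0 higher; q under 0.1 gave 5 progenitor and RNA-binding genes and 2 filament genes higher. No paired analysis was possible because the table holds 1 pooled value per condition, and for the same reason no library could be left out. Low values limit Sox1 and Pou3f2 most.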

Other observations

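Genes of the neural crest, the migratory cells that leave the dorsal neural tube, and of glia also went both ways. Of 8 tested crest genes, 3 were called higher and 2 lower, and this split was the same with equal totals. Beside these and the glial genes, 22.4% of all tested genes were called higher and 28.4% lower. The receptor genes Erbb3 and Ngfr rose from 1.56 to 7.70 FPKM (log2 fold change 2.30) and from 3.06 to 6.88 FPKM (1.17) per the authors' deposited table. The transcription factor genes went both ways: Tfap2a rose from 0.329 to 0.618 FPKM (0.91), while Foxd3 and Twist1 fell (-1.30 and -1.14) per the authors' deposited table. Sox10, the defining factor of crest and oligodendrocytes, was not tested, at 0.0581 (WT) and 0.404 FPKM (KO). Of 7 tested glial genes, Aldh1l1, an astrocyte enzyme gene, and Mbp, the myelin basic protein gene, rose (1.64 to 5.32 and 1.05 to 2.52 FPKM) and Olig2 fell (3.45 to 1.24 FPKM) per the authors' deposited table; Gfap was not tested, at 0.367 and 0.375 FPKM. These genes were named after their values were seen.

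Genes within 50000 bases of the members did not share their direction throughout. Beside Nes, Bcan was higher (log2 fold change 1.49) while Isg20l2, Mrpl24 and Rrnad1 were lower, although Isg20l2 and Mrpl24 would turn positive with equal totals. Beside Msi1, which rose, Pla2g1b was lower (-1.01) and Sirt4 higher (0.57), and beside Ncam1 the gene Ttc12 was higher (0.49), all per the authors' deposited table.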
